A study of Mus musculus with 6 samples.

Results

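The genes described here are 8 genes linked to the first steps of lymphoid development, followed in 3 kinds of mouse blood progenitor cells with and without Stag2. They are Dntt, Rag1, Rag2, Satb1, Notch1, Mef2c, Lsp1 and Cd27. They were chosen by name, with earlier results of these data known. All 8 were present in every sample's table among 18011 gene symbols found in any of them. The cells were stem cell-like cells, lymphoid-primed cells and cells that resemble lymphoid progenitors.

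Lymphoid cells arise from haematopoietic stem cells through multipotent progenitors in which lymphoid genes are switched on at low levels before the cells are committed, a state called lymphoid priming. Among their proteins, terminal deoxynucleotidyl transferase (DNTT) and the RAG1 and RAG2 recombinase act on antigen receptor genes, and SATB1 and MEF2C are nuclear proteins that control early lymphoid gene programmes. NOTCH1 is the receptor that directs progenitors to the T cell fate, CD27 is a TNF receptor family member of lymphocytes and multipotent progenitors, and LSP1 is an actin-binding protein of leukocytes.

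The study profiled single lineage-negative cells (Lin-, cells without the surface proteins of mature blood lineages) from 3 mice labelled Stag2 KO and 3 labelled Stag2 wt, here KO1 to KO3 and WT1 to WT3. The protein STAG2 is part of cohesin, a ring complex that folds chromatin into loops. The labels give the genotype only, with no word on mouse strain, age, sex or how and in which cells Stag2 was deleted. The mRNA was counted as unique molecular identifiers (UMIs) from the 3′ end with a droplet method. The sample titles share 1 prefix in KO1, KO2, KO3 and WT1 and carry 2 other prefixes in WT2 and WT3, with no word on what the prefixes mark.

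For Dntt, Mef2c and Satb1, the 250 bases before the first annotated start are printed 5′ to 3′ from RefSeq on GRCm38.p6. The table of starts held 1 start for Dntt, 3 for Mef2c and 5 for Satb1, and only the most upstream is shown. Counts from the 3′ end do not tell which start was used. Dntt lies at chr19:41029025-41029274 on the + strand, Mef2c at chr13:83503784-83504033 on the + strand and Satb1 at chr17:51833291-51833540 on the - strand. Capitals mark matches to CANNTG, the E-box that the helix-loop-helix proteins of early lymphoid cells bind, which reads the same way on both strands.
Dntt: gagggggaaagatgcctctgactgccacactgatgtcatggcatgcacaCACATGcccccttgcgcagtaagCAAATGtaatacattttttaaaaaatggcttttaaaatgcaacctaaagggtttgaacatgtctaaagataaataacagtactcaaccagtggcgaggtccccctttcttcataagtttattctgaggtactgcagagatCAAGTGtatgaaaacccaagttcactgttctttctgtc
Mef2c: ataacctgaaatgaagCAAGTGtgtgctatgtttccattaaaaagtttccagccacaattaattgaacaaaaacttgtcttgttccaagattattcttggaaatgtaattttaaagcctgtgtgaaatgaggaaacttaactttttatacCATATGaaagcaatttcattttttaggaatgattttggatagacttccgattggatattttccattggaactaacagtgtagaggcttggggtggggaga
Satb1: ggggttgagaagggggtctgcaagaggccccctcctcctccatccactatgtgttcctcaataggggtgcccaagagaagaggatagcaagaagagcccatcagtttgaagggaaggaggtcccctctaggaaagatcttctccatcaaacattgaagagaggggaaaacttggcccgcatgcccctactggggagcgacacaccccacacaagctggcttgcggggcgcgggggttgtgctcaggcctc
Dntt had 3 such matches, Mef2c had 2 and Satb1 had 0 in this window. An E-box was present in 66.1% of 27025 promoter windows of the same length, with a median of 1 match, so having one is common. Lsp1 had no entry in the table of starts. Among the other members, Rag1 and Cd27 had 3 matches each, Rag2 had 1 and Notch1 had 0. GAGGAA, a core of PU.1 sites, was searched on both strands and was found once each for Rag2, Satb1, Notch1 and Mef2c, against a share of 23.1% of all windows. TGTGGT, a core of RUNX sites, was found on either strand for Rag1 alone (2 matches), against 14.2% of all windows. A match describes the letters only and is no evidence that a protein binds there.

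The 3 cell classes were drawn by clustering without the 8 genes, so that their levels did not shape the classes. Of 23416 kept cells, 3251 fell into clusters led by stem cell or early lymphoid markers and were clustered again into 9 sub-clusters. Sub-clusters 0, 1 and 2, with 1841 cells, were stem cell-like, and Hlf, Gcnt2, Mecom and Procr were among their leading genes. Sub-cluster 6, with 265 cells, was called lymphoid-primed and was led by Cnn3, Il12a and Flt3. It had 5 of 12 lymphoid-primed markers raised, the largest share of any list there. That count does not set it apart, as sub-clusters 0, 4 and 7 also had 5 raised and sub-cluster 5 had 8. Its first leading gene, Cnn3, had a log2 change of -3.20 in KO within this class. Sub-cluster 5, with 298 cells, had 11 of 12 lymphoid progenitor markers and 8 of 12 lymphoid-primed markers raised, Ebf1 and Ly6d among them. Its 10 leading genes held more lymphoid-primed than lymphoid progenitor markers, so it is called the Ebf1 and Ly6d cluster below and not by a cell type name. The classes held 150 to 416, 17 to 65 and 15 to 93 cells per sample, and KO2 gave the fewest cells in the lymphoid-primed class (17) and in the Ebf1 and Ly6d cluster (15). Summed UMIs per sample ranged from 1254170 to 3140777 in stem cell-like cells, from 170714 to 439199 in lymphoid-primed cells and from 70350 to 411598 in the Ebf1 and Ly6d cluster. Between 5 and 39 cell barcodes were shared by each pair of samples.

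Stag2 itself was read first as a check of the labels. In stem cell-like cells Stag2 was at 23.6, 27.7 and 21.9 CPM (counts scaled to the same total of UMIs in each sum) in the KO samples, given in the order KO1 to KO3 here and below. It was at 51.0, 36.9 and 45.5 CPM in the wt samples, in the order WT1 to WT3. All KO sums lay below all wt sums, and the log2 change was -0.93 (SE 0.17, adjusted p = 0.0039 in edgeR's quasi-likelihood test with Benjamini-Hochberg adjustment). In lymphoid-primed cells Stag2 was at 24.5, 17.6 and 22.8 CPM against 40.8, 49.0 and 60.3, again without overlap (adjusted p = 0.127, edgeR). In the Ebf1 and Ly6d cluster Stag2 was at 49.8, 28.4 and 43.8 CPM against 35.1, 41.4 and 48.6. There the groups overlapped, so the Stag2 level does not separate the labels in that cluster. The log2 change of Stag2 there was 0.04 (95% interval -0.72 to 0.79), on 16, 2 and 8 UMIs against 10, 15 and 20. The deleted part of Stag2 is not named in the labels, and 3′ counts from outside that part would check nothing.

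In stem cell-like cells, 3 of the 8 genes fell in the Stag2 KO and none rose. Dntt fell by 1.21, Lsp1 fell by 0.81 and Mef2c fell by 0.46 on the log2 scale. Satb1 and Cd27 kept overlapping levels, and Rag1 and Rag2 were near 0 in both genotypes. The test had enough counts for 6 of the 8 genes. The 3 calls compare with 1.85% of the 9336 genes tested in this class that were called in either direction, 1.39% called lower and 0.461% called higher. DESeq2 also called 3 of the 6 lower, against 0.909% of genes it tested, and at an unadjusted p of 0.05 in edgeR 4 were lower, against 10.8% of genes in either direction. The median log2 change was -0.64 over the 6 tested members and 0.00 over all genes tested. The members and the gene lists were chosen with earlier results of these data known. Shares over all genes, here and below, are thus a scale and no test of an excess.

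Dntt, which adds untemplated bases at antigen receptor joints, was at 39.2, 26.4 and 36.1 CPM in the KO stem cell-like sums and at 58.2, 74.2 and 93.7 in the wt sums. The highest KO sum lay below the lowest wt sum. The means were 33.9 ± 6.67 and 75.4 ± 17.8 CPM (SD, n = 3 mice each), and the log2 change was -1.21 (SE 0.16, 95% interval -1.53 to -0.88, adjusted p = 1.09e-04, edgeR). Among the 4 samples that share a title prefix, where WT1 is the only wt, the log2 change was -0.86 with an adjusted p of 0.0748 (edgeR), so the call was lost there while the direction held. With the class drawn from marker scores per cell in place of clusters, the direction turned to 0.55 (adjusted p = 0.659, edgeR), and with cells thinned to 2000 UMIs the change was -0.96 (adjusted p = 0.0625, edgeR).

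The lower Dntt sums came with fewer Dntt UMIs per Dntt-positive cell at 2000 UMIs. After thinning each cell to 2000 UMIs, which removes differences in depth, cells with at least 1 Dntt UMI carried 1.27, 1.27 and 1.42 Dntt UMIs on average in the KO and 1.80, 1.78 and 2.05 in the wt samples. These means did not overlap, and they rest on 26, 11 and 19 positive cells in KO and 10, 18 and 39 in wt. How many of all genes had means apart in this way was not counted. Cells with at least 3 Dntt UMIs numbered 0, 1 and 2 in the KO samples, of 408, 180 and 391 cells. They numbered 3, 2 and 12 in the wt samples, of 147, 293 and 384 cells. WT3 held most of them. The share of cells with any Dntt UMI was 5.78% ± 0.809 in KO and 7.70% ± 2.15 in wt (SD, n = 3), and these shares overlapped (2-sided exact permutation p = 0.2). With cells thinned to 1000 UMIs the Dntt shares were 2.88%, 3.24% and 3.04% in KO and 5.33%, 4.75% and 7.29% in wt, all KO below all wt, against 4.40% of genes at that depth (exact permutation p = 0.1, 2-sided). In unthinned cells they overlapped again, so the Dntt share depends on the depth chosen. Free RNA can give UMIs in cells that do not express a gene. In early erythroid cells, which should lack Dntt, the share was 0.193%, at a median of 6485 UMIs per cell against 6832 in stem cell-like cells. Megakaryocyte-like cells were less clear, with Dntt at 47 ± 45.5 CPM (SD, 6 sums, 9.84 to 114). Their KO mean was 19.8 CPM and their wt mean 74.2 CPM, the same direction as in stem cell-like cells. Whether free RNA had a part in the Dntt difference of stem cell-like cells was not tested.

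Lsp1, the leukocyte actin-binding protein, was at 70.7, 72.7 and 75.9 CPM in the KO and at 122, 136 and 108 CPM in the wt stem cell-like sums. The KO sums were close to each other and all lay below the wt sums, with means of 73.1 ± 2.61 and 122 ± 14.0 CPM (SD, n = 3). The log2 change of Lsp1 was -0.81 (SE 0.11, 95% interval -1.05 to -0.58, adjusted p = 2.39e-04, edgeR). Within the shared title prefix it was -0.86 (adjusted p = 0.00582, edgeR). The share of thinned cells with an Lsp1 UMI was 15.7%, 15.6% and 16.1% in the KO samples and 17.7%, 27.3% and 18.2% in the wt samples, all KO below all wt. Such shares did not overlap for 3 of the 6 tested members (Lsp1, Mef2c and Notch1), against 4.98% of genes with all KO below all wt. At 1000 UMIs the members without overlap were Dntt and Lsp1, and in unthinned cells, of the 6, Lsp1 alone, so Mef2c and Notch1 stood apart at 2000 UMIs only. In early erythroid cells the Lsp1 share at 2000 UMIs was lower, 3.09% over all samples. It was 1.81%, 0.99% and 0.685% in the KO samples, from 4, 1 and 1 cells. In the wt samples it was 7.29%, 4.74% and 3.55%, from 7, 9 and 10 cells. These groups overlapped at 1000 UMIs and in unthinned cells, and how many of all genes were apart there was not counted. Whether free RNA had a part in the Lsp1 difference of stem cell-like cells was not tested.

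Mef2c, a transcription factor needed for lymphoid output from multipotent progenitors, was at 134, 111 and 133 CPM in the KO and at 169.8, 157 and 176 CPM in the wt stem cell-like sums. The groups did not overlap. The log2 change was -0.46 (SE 0.10, 95% interval -0.68 to -0.25, adjusted p = 0.017, edgeR). The call was lost without KO1 (adjusted p = 0.0565), KO2 (0.08), KO3 (0.0572) or WT3 (0.12), each in edgeR, while the log2 change stayed between -0.53 and -0.40 without any 1 of the 6 samples. Of 20 alternatives run for Mef2c in this class, 8 kept the call. Within the shared title prefix the Mef2c change was -0.54 (adjusted p = 0.117, edgeR). The share of Mef2c-positive cells thinned to 2000 UMIs was 21.6%, 19.4% and 24.8% in KO and 25.2%, 28.3% and 30.5% in wt. These shares were apart at this depth but overlapped at 1000 UMIs and in unthinned cells, so they are not read as a difference. The early erythroid share was 22.1%, but those cells had Mef2c at 117 CPM, so it is not used as a background. In basophil/mast cells the share was 1.06%.

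Notch1, at 14.0, 5.79 and 13.1 CPM in the KO stem cell-like sums and 26.3, 18.3 and 18.6 in the wt sums, also did not overlap. Its log2 change of -0.85 (SE 0.25) missed the threshold (adjusted p = 0.119, edgeR). In all, 4 of the 6 tested members had every KO sum below every wt sum, against 5.23% of all genes tested in this class. Satb1, a chromatin organiser of early lymphoid cells, was at 62.1, 60.5 and 46.9 CPM against 61.4, 46.2 and 59.3. Its log2 change was -0.03 with a 95% interval of -0.35 to 0.28. Cd27 was at 225, 206 and 229.9 CPM against 183, 241 and 222, a log2 change of -0.04 with a 95% interval of -0.24 to 0.16. The KO and wt sums of Satb1 and of Cd27 were intermingled. Rag1 had 0 UMIs in every KO sum and 2, 1 and 1 UMIs in the wt sums, and Rag2 had 3, 1 and 3 against 1, 2 and 5. These counts were too low for a test, and both genes were at 0 in the thinned early erythroid cells.

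**Figure D1:**
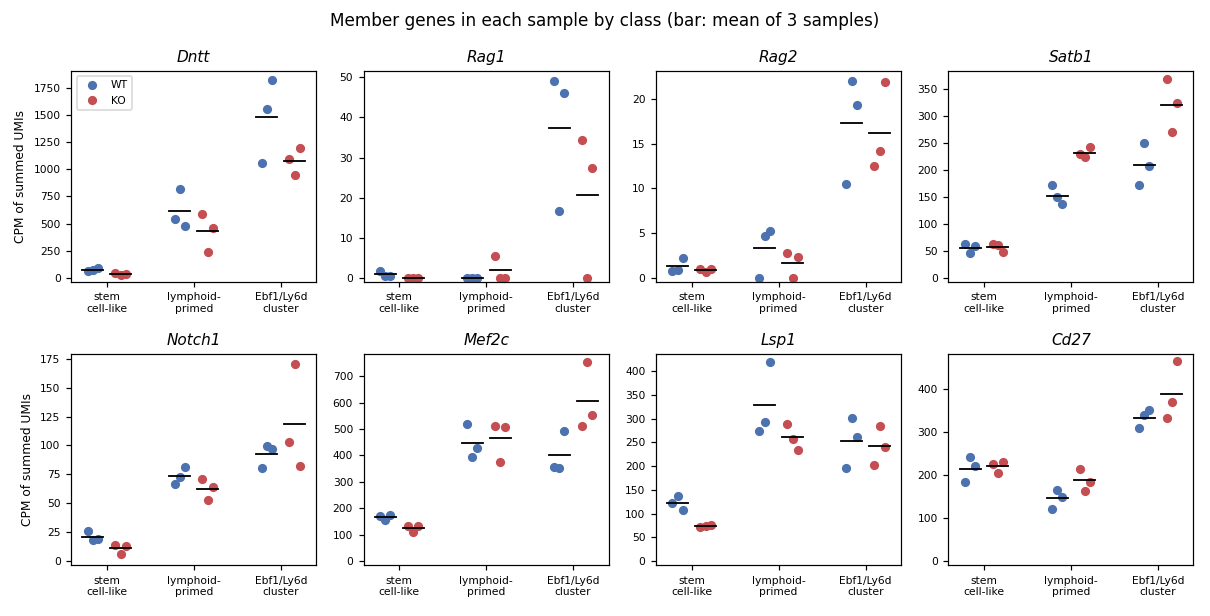
Level of each of the 8 genes in the summed cells of each sample, in CPM, for stem cell-like cells, lymphoid-primed cells (LP) and the Ebf1 and Ly6d cluster. Each point is 1 sample (3 KO, 3 WT), each bar is the mean of 3 samples, and Dntt in stem cell-like cells shows the KO points, 26.4 to 39.2 CPM, below the WT points, 58.2 to 93.7 CPM.

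The stem cell-like class was made of 3 sub-clusters, and the members that did not overlap between genotypes were not the same in each. Whether the genotype differences were of unlike size between sub-clusters was not tested. Sub-cluster 2, with Adgrl4 and Fam69b among its leading genes, had Dntt at 30.7, 15.9 and 24.2 CPM in KO and 58.9, 82.7 and 114 CPM in wt. Its Lsp1 was at 52.4, 60.1 and 54.8 against 111, 125 and 89.8 CPM, and its Mef2c at 104, 91.9 and 109 against 143, 157 and 156 CPM. None of these 3 genes overlapped between genotypes there, against 5.0% of 7317 genes with every KO sum below every wt sum in sub-cluster 2 (genes with at least 10 UMIs in at least 3 of its 6 sums). In sub-cluster 0, Dntt was at 68.7, 64.2 and 74.6 CPM against 114, 75.3 and 85.3, and Satb1 was at 99.2, 95 and 93.3 against 70.1, 68.5 and 80.0. Its Lsp1 was at 82.3, 74.5 and 65.3 CPM against 111, 163 and 115, and its Notch1 at 18.0, 2.57 and 14.0 against 43.8, 28.2 and 20 CPM, with 1 UMI in KO2. Dntt, Lsp1 and Notch1 were thus lower in every KO sum of sub-cluster 0, against 5.26% of 6165 genes, and Satb1 was higher in every KO sum, against 8.73%. In sub-cluster 1, the one with the most stem cell markers raised (15 of 18), Dntt, Lsp1, Mef2c and Satb1 all overlapped. Its Dntt was at 2.85 CPM in WT1 (1 UMI) and 60.6 and 71.1 CPM in WT2 and WT3, against 20.3, 8.58 and 12.8 in the KO samples. WT1 is the wt sample that shares its title prefix with the KO samples, so in sub-cluster 1 the Dntt difference cannot be told apart from the prefix.

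Several marker lists moved with the genotype in the stem cell-like sums. The 12 lymphoid-primed markers summed to 2166 to 2603 CPM in KO and 2536 to 3100 in wt, which overlapped, with WT1 below KO1 and KO2. Of these markers 6 had every KO sum below every wt sum, against 5.23% of all genes tested in this class. Among lists that were apart, the 12 lymphoid progenitor markers were lower in KO (253 to 333 against 348 to 415 CPM). Basophil/mast cell markers were lower too (1105 to 1284 against 1576 to 1781 CPM). So were conventional dendritic cell, plasma cell and macrophage markers, while early erythroid and megakaryocyte markers were higher. Early myeloid markers were higher (2912 to 3286 against 2277 to 2827 CPM). The 12 monocyte markers summed to 38.1 to 55.3 CPM against 97.3 to 107, and the 13 late neutrophil markers to 151 to 354 against 32.4 to 108, with Cd177 and Ly6g at 0. The B cell markers summed to 184 to 212 against 243 to 535 CPM, with Ms4a1 and Pax5 at 0 in all samples. Their part in the member differences was not tested. Fewer cells of a kind within a sum and less RNA per cell cannot be told apart in these sums.

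**Figure D2:**
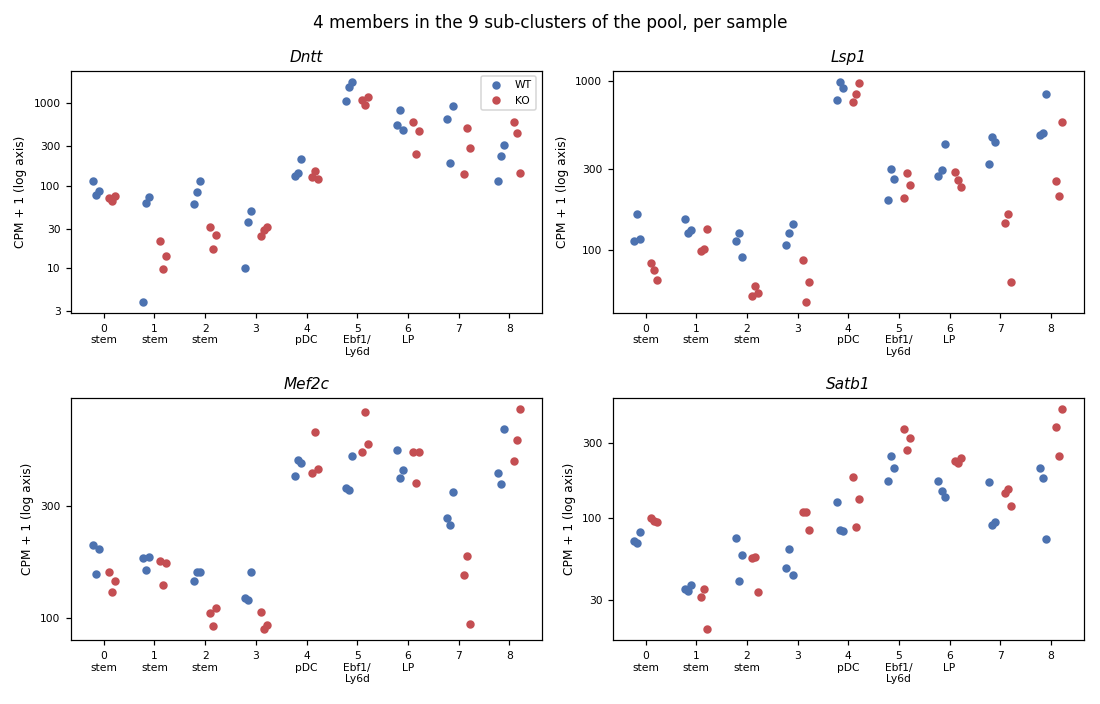
Level of Dntt, Lsp1, Mef2c and Satb1 in each of the 9 sub-clusters, in CPM plus 1 on a log axis. Each point is 1 sample, and in sub-cluster 2 the KO points of Dntt, Lsp1 and Mef2c lie below the WT points.

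In lymphoid-primed cells none of the 8 genes passed the test. The sums of Satb1 were higher in every KO sample, Dntt and Lsp1 had lower KO means with overlap, and Mef2c, Notch1 and Cd27 overlapped. The count of 0 of 6 tested members came from edgeR at an adjusted p of 0.05, where 1.19% of 3873 genes were called. At an unadjusted p of 0.05 the members counted 2 lower and 1 higher, against 9.81% of all genes in either direction, and DESeq2 called 0, against 0.623% of the genes it tested.

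Satb1 was at 229, 223 and 241 CPM in the KO and at 171, 149 and 136 CPM in the wt lymphoid-primed sums. It was the only member of this class whose groups did not overlap, against 8.57% of all genes tested here with every KO sum above every wt sum. The means were 231 ± 9.58 and 152 ± 17.3 CPM (SD, n = 3), and the log2 change was 0.58 (SE 0.17, 95% interval 0.23 to 0.94, adjusted p = 0.127, edgeR). Within the shared title prefix it was 0.36 (adjusted p = 0.785, edgeR). Thinned shares of cells with a Satb1 UMI were 34.7%, 29.4% and 42.6% in KO and 29.0%, 27.7% and 26.2% in wt, against 1.83% in early erythroid cells. Satb1 and Cd27 were the 2 members whose shares at 2000 UMIs were higher in every KO sample, against 4.98% of genes by this measure. The exact permutation p was 0.1, the smallest that 3 against 3 allows (2-sided). This did not hold at other depths. At 1000 UMIs the Satb1 shares were 15.7%, 23.5% and 16.3% against 22.6%, 25.0% and 7.69%, and both genes overlapped there and in unthinned cells. The 2 members that stood apart at those depths were lower in KO, Dntt and Notch1 at 1000 UMIs and Notch1 and Lsp1 in unthinned cells, against 5.99% and 2.45% of genes.

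Dntt was at 585, 240.2 and 462 CPM in the KO and at 538, 821 and 477 in the wt lymphoid-primed sums. KO2, with 17 cells, was the lowest, and KO1 lay above WT1 and WT3. The log2 change was -0.50 (SE 0.21, adjusted p = 0.385, edgeR). It was -0.23 without WT2, -0.29 without KO2 and -0.78 without KO1, so single samples set its size. Lsp1 was at 288, 258 and 235 CPM against 274, 294 and 419, a log2 change of -0.39 (SE 0.17, adjusted p = 0.438, edgeR). Its highest value was in WT3 and the rest overlapped. Without WT3 the Lsp1 change was -0.19, and without any 1 sample it lay between -0.49 and -0.19.

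Mef2c, at 511, 375 and 508 CPM against 519, 394 and 427, had a log2 change of 0.05 with a 95% interval of -0.26 to 0.37. Notch1 was at 70.7, 52.7 and 63.8 CPM against 66.7, 72.3 and 81.3 (log2 change -0.24, 95% interval -0.76 to 0.27). Cd27 was at 215, 164 and 184 CPM against 122, 166 and 149 (log2 change 0.33, 95% interval -0.04 to 0.70). For Cd27, KO1 and KO3 lay above the wt sums and KO2 lay among them. In cells thinned to 2000 UMIs the Cd27 share was 36.6% ± 3.94 against 27.1% ± 2.27 without overlap (exact permutation p = 0.1, 2-sided). Rag1 had 2, 0 and 0 UMIs against 0, 0 and 0, and Rag2 had 1, 0 and 1 against 0, 2 and 2. Neither recombinase gene could be tested in this class.

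Other markers moved with the genotype in lymphoid-primed cells as well. Granulocyte progenitor markers summed to 2212 to 2624 CPM in KO against 919.5 to 1437 in wt, and early myeloid markers to 3755 to 4182 against 2536 to 2796. Lymphoid-primed markers summed to 6819 to 6910 against 7475 to 7757, and monocyte markers to 474 to 579.5 against 799.8 to 1072, with Fn1 and Cd14 among those at 0. Their part in the member values was not tested.

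The boundary of the lymphoid-primed class mattered for Dntt and Lsp1. Sub-cluster 7, 156 dividing cells that also expressed Flt3 and Ly6d, was left unnamed because its leading genes mixed the markers. There Lsp1 was at 144, 163 and 63.9 CPM in KO and at 321, 466 and 434 in wt, and Mef2c at 151, 183 and 93.4 against 267, 249 and 345. The groups of both genes were apart, against 11.2% of 2323 genes with every KO sum below every wt sum there. Its Dntt was at 136, 498 and 285 CPM against 642, 185 and 934, and overlapped. When these cells were added to the class, an alternative chosen after the data were seen, Dntt was lower in KO by a log2 change of -0.74 (adjusted p = 8.26e-04, edgeR) and Lsp1 by -0.79 (adjusted p = 0.00244, edgeR). Satb1 then had a log2 change of 0.48 (adjusted p = 0.147, edgeR). A wider boundary did not give the same picture. In the whole first-stage cluster of 840 cells, also chosen after the data were seen, Dntt had a log2 change of -0.36 (adjusted p = 0.209) and Lsp1 of -0.09 (adjusted p = 0.821), while Satb1 was higher by 0.68 (adjusted p = 0.0218, all edgeR).

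In the Ebf1 and Ly6d cluster, again none of the members passed the test. Satb1 and Mef2c were higher in every KO sum, Dntt had a lower KO mean with overlap, and Notch1, Lsp1 and Cd27 were intermingled. The count of 0 of 7 tested members came from edgeR, where 0.951% of 3574 genes were called. At an unadjusted p of 0.05 the members counted 1 lower and 2 higher, against 7.75% of all genes in either direction, and DESeq2 called 0 of 6, against 0.520% of the genes it tested.

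Satb1 was at 367, 270.1 and 323 CPM in the KO and at 172, 249 and 207 CPM in the wt sums of this cluster. The means were 320.1 ± 48.7 and 209 ± 38.3 CPM (SD, n = 3), a log2 change of 0.62 (SE 0.18, 95% interval 0.26 to 0.98, adjusted p = 0.106, edgeR). All KO sums lay above all wt sums, as did those of Mef2c, against 7.72% of all genes tested here. Within the shared title prefix the Satb1 change was 0.82 (adjusted p = 0.139, edgeR). The thinned share of Satb1-positive cells was 41.8%, 53.8% and 44.1% in KO and 19.0%, 39.6% and 32.2% in wt. Every KO share lay above every wt share, as for 5.57% of genes by this measure, with an exact permutation p of 0.1 (2-sided). KO2 contributed 13 thinned cells. At 1000 UMIs the Satb1 shares were 32.1%, 6.67% and 42.9% against 25.6%, 25.5% and 14.0%, and in unthinned cells 71.4%, 66.7% and 61.1% against 46.5%, 72.7% and 51.6%, so they overlapped at both other depths. The Satb1 change passed the test when the sub-clusters were drawn at resolution 2.0 (0.89, adjusted p = 0.0349, edgeR). It also passed when the 8 genes were kept for clustering (1.05, adjusted p = 0.0214, edgeR). In the whole first-stage cluster of 840 cells, an alternative added after the data were seen, it passed too (0.68, adjusted p = 0.0218, edgeR).

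Mef2c was at 511, 753 and 552 CPM in the KO and at 358, 351 and 493 CPM in the wt sums of the Ebf1 and Ly6d cluster. Its log2 change was 0.48 (SE 0.18, 95% interval 0.11 to 0.84, adjusted p = 0.385, edgeR), and without KO2, which held 15 cells, it was 0.33 (adjusted p = 0.706, edgeR). Within the shared prefix it was 0.55 (adjusted p = 0.573, edgeR). The KO values were high and WT3 was the closest wt sample. With classes drawn from marker scores per cell, the Mef2c change turned to -0.33.

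Dntt was at 1093, 952 and 1198 CPM in KO and at 1064, 1556 and 1822 in wt. WT1 lay among the KO sums while WT2 and WT3 lay above them. The log2 change was -0.48 (SE 0.16, 95% interval -0.81 to -0.16, adjusted p = 0.253, edgeR). Without WT1 it was -0.65 (adjusted p = 0.00702, edgeR), and within the shared prefix it was -0.10 (adjusted p = 0.967, edgeR). The thinned share of Dntt-positive cells was 65.5%, 53.8% and 64.7% in KO and 71.4%, 84.9% and 74.4% in wt, all KO below all wt, as for 4.90% of genes (exact permutation p = 0.1, 2-sided). At 1000 UMIs these shares overlapped.

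Rag1, which with Rag2 cuts the recombination signals, had 11, 0 and 5 UMIs in KO and 14, 6 and 19 in wt. The 0 came from KO2, which had the smallest sum (70350 UMIs). The log2 change of Rag1 was -0.47 with a 95% interval of -1.50 to 0.57. Rag2 had 4, 1 and 4 UMIs against 3, 8 and 8 and could not be tested. Lsp1 was at 202, 284 and 241 CPM against 197, 301 and 262, Notch1 at 103, 171 and 82.0 against 80.8, 99.5 and 97.2, and Cd27 at 333, 369.6 and 465 against 309, 339.9 and 352. Their 95% intervals on the log2 scale were -0.59 to 0.18 for Lsp1, -0.41 to 0.68 for Notch1 and -0.18 to 0.50 for Cd27.

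The lymphoid progenitor markers summed to 2587 to 2843 CPM in KO against 3197 to 3305 in wt in the Ebf1 and Ly6d cluster, and lymphoid-primed markers to 4593 to 5004 against 5444 to 6584. Stem cell markers summed to 967 to 1084 against 678 to 807 CPM, with Fgd5 at 0. B cell markers overlapped at 414 to 1061 against 754 to 1517, with Ms4a1 and Fcmr at 0. Their part in the member values was not tested.

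**Figure D3:**
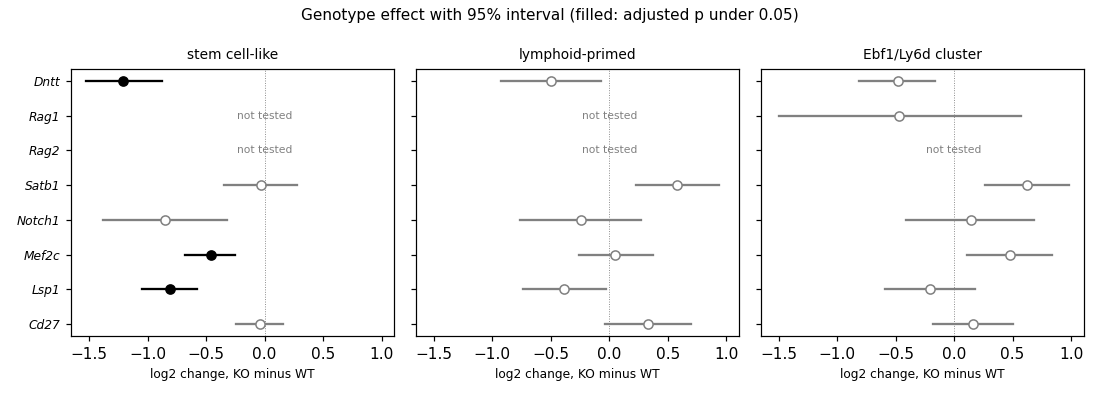
Log2 change of KO over WT for each tested member in the 3 classes, with 95% intervals and filled points for an adjusted p under 0.05. Mef2c lies at -0.46 in stem cell-like cells and at 0.48 in the Ebf1 and Ly6d cluster, on opposite sides of 0.

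Whether the genotype difference of a gene itself differed between the classes was tested with a class-by-genotype term and the sample as a block, over 5386 genes. Of these 0.928% were called jointly, 0.854% between lymphoid-primed and stem cell-like cells, and 0.186% in each of the comparisons that involve the Ebf1 and Ly6d cluster. Mef2c was the 1 member that passed, with a joint adjusted p of 7.30e-04 (edgeR). Its log2 change was higher by 0.84 (SE 0.16, adjusted p = 0.00125, edgeR) in the Ebf1 and Ly6d cluster than in stem cell-like cells. That difference ranged from 0.70 to 1.01 over the 9 alternatives run for it and passed in all 9. Those alternatives changed the scaling, the filter or the samples, and none of them redrew the classes. With classes from marker scores, Mef2c was at -0.21 in stem cell-like cells and at -0.33 in the other class, so the signs were not opposite there, and the difference was not tested. Mef2c in lymphoid-primed cells differed from stem cell-like cells by 0.53 (SE 0.15, adjusted p = 0.0644, edgeR), and from the Ebf1 and Ly6d cluster by 0.31 (SE 0.17, adjusted p = 0.786, edgeR).

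Dntt came close to the threshold, with a joint adjusted p of 0.0687 and a difference of 0.70 (SE 0.19, adjusted p = 0.0521, edgeR) between lymphoid-primed and stem cell-like cells. That difference was 0.77 without KO2 (adjusted p = 0.0319) and 1.02 without WT2 (adjusted p = 9.40e-04), both past the threshold in edgeR. It was 0.54 without KO1 (adjusted p = 0.459), 0.35 without WT3 (adjusted p = 0.686) and 0.54 within the shared title prefix (adjusted p = 0.714), all short of it in edgeR. Satb1 had differences of 0.63 and 0.62 against stem cell-like cells, with a joint adjusted p of 0.17 (edgeR). Lsp1 (joint adjusted p = 0.384), Notch1 (0.573) and Cd27 (0.761) did not pass either in edgeR. The change of Lsp1 in stem cell-like cells is therefore not shown to differ from its values in the other classes. Rag1 entered this test with zero counts in several sums, and no value is given for it.

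Across 21 cell groups of the data, the members had different places of highest level, each a mean over sums of at least 20 cells. Dntt was highest in the Ebf1 and Ly6d cluster at 1347 ± 330.2 CPM (SD, 5 sums), then in lymphoid-primed cells at 577 ± 145, and in stem cell-like cells at 54.6 ± 25.7 (6 sums), sixth in order. The sums of the first 2 groups, 1064 to 1822 and 462 to 821 CPM, did not overlap. The 5 sums leave out KO2, which had fewer than 20 cells. Rag1 and Rag2 were highest in B cells, which had 3 wt sums and 0 KO sums, at 67.9 ± 22.3 and 22.6 ± 5.66 CPM, and next in the Ebf1 and Ly6d cluster, at 34.7 ± 13.4 and 17.3 ± 5.43. The Rag2 levels of these groups lay within their spread.

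Satb1, Notch1 and Cd27 were also highest in the Ebf1 and Ly6d cluster. Satb1 was at 263 ± 80.8 CPM there, 185 ± 47.2 in lymphoid-primed cells and 141 ± 25.5 in T/NK cells, neighbours that lay within their spread. Notch1 was at 92.4 ± 10.3 CPM, then 71.0 ± 6.67 in lymphoid-primed cells, and 16.0 ± 6.85 in stem cell-like cells. The first 2 of these overlapped slightly, with sums from 80.8 and up to 81.3 CPM. Cd27 was at 359.9 ± 60.8 CPM, then 265 ± 33.9 in T/NK cells, 260.1 ± 49.9 in an unnamed cluster, 251 ± 47.5 in sub-cluster 7 and 218 ± 20.6 in stem cell-like cells, the fifth in order. Lymphoid-primed cells were at 167 ± 35.0 CPM for Cd27. Mef2c was at 472 ± 57.3 CPM in lymphoid-primed cells, 453 ± 92.5 in the Ebf1 and Ly6d cluster and 416 ± 40.7 in plasmacytoid dendritic cells, which do not differ beyond their spread. Lsp1 had its highest level elsewhere, at 1558 ± 146 CPM in plasmacytoid dendritic cells, 1395 ± 128 and 1368 ± 199 in a pair of unnamed clusters and 1026 ± 67.5 in monocytes. The sums of the first 3 of these overlapped, so the top place of Lsp1 is not beyond their spread. It was at 302 ± 69.6 CPM in lymphoid-primed cells and 97.6 ± 28.4 in stem cell-like cells.

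**Figure D4:**
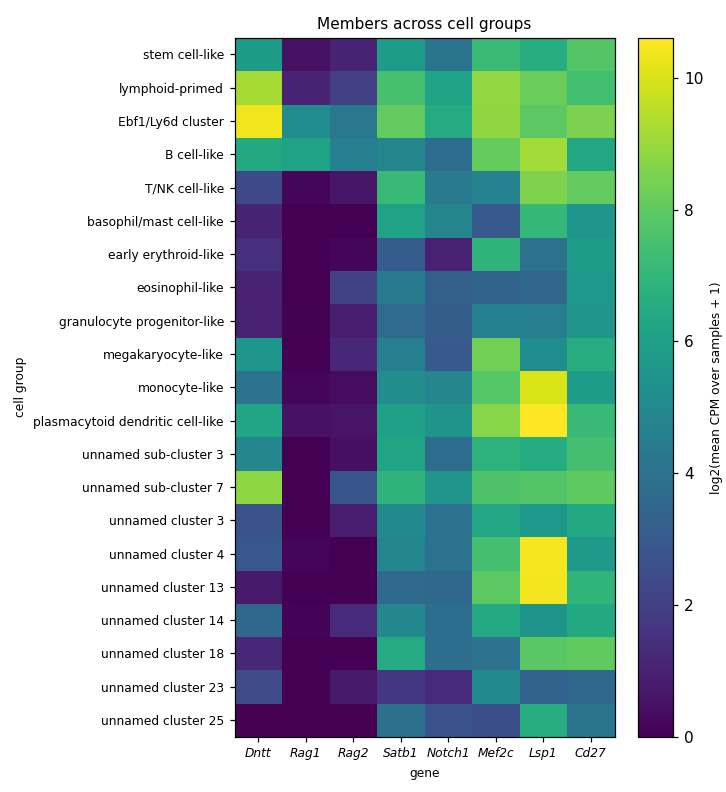
Mean level of the 8 genes (columns) in the 21 cell groups (rows), as colour on the scale log2(mean CPM over samples + 1). Dntt is highest in the Ebf1 and Ly6d cluster (1347 CPM) and Lsp1 in plasmacytoid dendritic cells (1558 CPM), where its sums overlap those of the next 2 groups.

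The genes whose levels tracked each member most closely were found by Pearson's r of log2(CPM + 1) over 111 class-by-sample sums of 21 cell groups and 6944 genes. These sums share libraries, so r is a description with no p. Dntt was most like Flt3 (r = 0.806), Tbxa2r (0.786) and Il12a (0.783). Satb1 was most like Tes (0.832), Gpr171 (0.818) and Tespa1 (0.784), and Mef2c like Cd180 (0.821), Plekho1 (0.814) and Tsc22d1 (0.797). Rag1 was most like Ebf1 (0.904), Cd79a (0.854) and Vpreb3 (0.813), which are genes of the B lineage. Rag2, at a mean of 2.18 CPM, was most like Xrcc6 (0.721), Myl4 (0.708) and Ebf1 (0.695), and genes like Notch1 included Tmem173 (0.731) and Satb1 (0.706). Lsp1 was most like Fmnl1 (0.905), S100a6 (0.9) and Psap (0.89), and Cd27 like Elk3 (0.81), Ptpn18 (0.761) and Bcl2 (0.759).

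Of 36 other early lymphoid genes, 9 of 31 tested fell in stem cell-like cells and 0 rose, where 1.85% of all genes were called. DESeq2 called 7 of 32. At an unadjusted p of 0.05 in edgeR 11 were lower and 4 higher, against 10.8% of all genes in either direction. Among them Wfdc17 fell by 2.79, Cnn3 fell by 3.15 and Flt3, the cytokine receptor of lymphoid-primed progenitors, fell by 1.24 on the log2 scale (adjusted p = 2.46e-08, 4.25e-05 and 2.52e-04, edgeR). The median log2 change of the list was -0.07 beside 0.00 over all genes tested. In lymphoid-primed cells 1 of 25 tested fell and 1 rose, against 1.19% of all genes called, with 1 of 23 called by DESeq2. Cnn3 fell by 3.20, and Runx1, a transcription factor of blood development, rose by 1.05 (adjusted p = 0.0319, edgeR). In the Ebf1 and Ly6d cluster 4 of 29 tested fell, against 0.951% of all genes called, with 3 of 29 called by DESeq2. Cnn3 fell by 3.74 and Wfdc17 fell by 1.82. Il7r, the interleukin-7 receptor, fell by 1.55 (adjusted p = 0.0155, edgeR) and Ly6d fell by 1.15 (adjusted p = 0.00155, edgeR).

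The lists nearest to each member held few calls. Among B lineage genes 0 of 7 tested were called in the Ebf1 and Ly6d cluster (2 lower at an unadjusted p of 0.05, DESeq2 0), with a median log2 change of -0.60 beside 0.00 over all genes. There Cd79b, a B cell receptor component, had -1.24 (adjusted p = 0.1, edgeR) and Vpreb1 had -1.78 (adjusted p = 0.49, edgeR). Of the genes of V(D)J recombination and end joining, 0 of 14 tested were called in stem cell-like cells by edgeR or DESeq2, and 0 passed an unadjusted p of 0.05. Of 24 Notch signalling genes tested there, 0 were called by edgeR or DESeq2 and 4 were lower at an unadjusted p of 0.05, with Notch2 at -0.59 (adjusted p = 0.185, edgeR) and Maml2 at -1.06 (adjusted p = 0.21, edgeR). Relatives of MEF2 and SATB (7 tested) and the CD27 pathway (13 tested) had 0 calls in stem cell-like cells by edgeR and by DESeq2, with 0 and 2 lower at an unadjusted p of 0.05. Among 18 leukocyte actin-binding genes, the group nearest to Lsp1, Capg fell by 0.47 in stem cell-like cells (adjusted p = 0.0369, edgeR), and Tmsb10 fell by 0.48 in lymphoid-primed cells (adjusted p = 0.0474, edgeR), while DESeq2 called 0 of them. Over the 8 lists other than the early lymphoid, actin-binding and cohesin lists, edgeR and DESeq2 called 0 of 101, 42 and 44 tested genes (edgeR's numbers) in the stem cell-like class, the lymphoid-primed class and the Ebf1 and Ly6d cluster. At an unadjusted p of 0.05 they counted 10 lower and 3 higher, 6 lower and 1 higher, and 5 lower and 3 higher, in the same order. Over all genes tested in these classes, 10.8%, 9.81% and 7.75% passed an unadjusted p of 0.05 in either direction (edgeR).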

How the data were processed

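For each of the 6 samples the authors deposited raw UMI counts, as whole numbers for every cell and gene. The libraries were 10x Chromium 3' libraries of polyadenylated RNA from Lin- cells, per the labels' protocols. The sources used here do not name the aligner, the counter or the build. Of 25636 deposited cells, 23416 were kept, with at least 500 genes, at most 20% mitochondrial counts and without the cells of highest simulated-doublet score (0.8% per 1000 cells). Of 18011 symbols, 13876 stood in all 6 tables and could be tested.

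Cells were clustered without the 8 genes (2000 variable genes, 30 components, 15 neighbours, Leiden resolution 1.0). The stem and early lymphoid clusters were clustered again with each gene centred within its sample (resolution 0.8). A marker counted as raised at 2-fold and 20 CPM. Counts were summed per sample and class and tested with edgeR 4.0.16 in R 4.3.3 (quasi-likelihood, TMM, low-count filter with a minimum count of 10, Benjamini-Hochberg at 0.05), KO minus wt. p-values reflect the spread between 3 and 3 mice. Shares used cells thinned to 2000 UMIs and a 2-sided exact permutation test, whose p is not adjusted. DESeq2 1.42.0 was an alternative. Clustering used Python 3.11.15 with scikit-learn 1.9.0 and leidenalg 0.10.2. On simulated counts over 9336, 3873 and 3574 genes, the test called 73%, 60% and 48% of 100 genes changed by a log2 of 1 in the stem cell-like class, the lymphoid-primed class and the Ebf1 and Ly6d cluster, and 21 of 194, 4 of 162 and 4 of 149 calls were false.

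The members, lists and markers were chosen with earlier results of these data known. Named are the 8 members, Stag2, at most 4 genes per list and class with the smallest p, and the 3 genes most like each member. Gene names within marker lists, leading genes of clusters and sub-cluster values were chosen after their values were seen. A few genes that this rule would name are not reported here.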

Additional observations from a re-analysis of the deposited data

Results flagged for a closer look

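Mef2c was picked out because its genotype difference was not the same in 2 cell classes, by a test of that difference. Its log2 change of KO over wt was -0.46 in stem cell-like cells and 0.48 in the Ebf1 and Ly6d cluster, each from a fit of that class alone. A joint fit of the 3 classes with the sample as a block gave a difference of 0.84 (SE 0.16, adjusted p = 0.00125 over 5386 genes, edgeR's quasi-likelihood test). The share of genes called for this difference was 0.186%. In stem cell-like cells all 3 KO sums lay below the 3 wt sums, and in the Ebf1 and Ly6d cluster all 3 lay above them. Stag2 itself was lower in every KO sum of stem cell-like cells, but its sums overlapped in the cluster. Without KO2, which had 15 cells in the cluster, the difference was 0.70 (adjusted p = 0.037, edgeR). No alternative for this difference redrew the classes. With classes from marker scores per cell, Mef2c was at -0.21 in stem cell-like cells and -0.33 in the other class, so the signs were not opposite there, and that difference was not tested. In the cluster the stem cell markers were higher in KO, at 967 to 1084 CPM against 678 to 807, and lymphoid progenitor markers lower, at 2587 to 2843 against 3197 to 3305. Their part in the Mef2c difference was not tested.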

How the results depend on the processing

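In stem cell-like cells 3 members were called. The count was 1 with the title prefix as a covariate, 1 within the 4 samples of the shared prefix, 1 with cells thinned to 2000 UMIs and 0 with classes from marker scores per cell, and it was 2 to 3 without any 1 sample. Lsp1 was called in 19 of 20 alternatives, Dntt in 16 and Mef2c in 8. With marker scores Dntt turned to 0.55 and Lsp1 was -0.47 (adjusted p = 0.0827, edgeR). Satb1 turned to 0.13 at resolution 2.0, 0.10 with the 8 genes kept for clustering, 0.14 with high doublet scores kept, 0.27 with thinned cells, 0.31 with marker scores and 0.30 without centring, and was -0.18 to 0.11 without any 1 sample. Cd27 turned to 0.15 with the prefix covariate and 0.16 within the prefix, and was -0.11 to 0.03 without any 1 sample.

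In lymphoid-primed cells the count of 0 became 1 without the low-count filter, 1 with doublets kept, 3 with marker scores, 2 with the dividing Flt3 sub-cluster added and 1 with the whole first-stage cluster, and stayed 0 without any 1 sample. Mef2c turned to -0.21 with the prefix covariate, -0.22 within the prefix, -0.09 at resolution 2.0, -0.01 with marker scores and -0.20 with the sub-cluster added (-0.05 to 0.20 without any 1 sample). Notch1 turned to 0.05 with the 8 genes kept for clustering and 0.09 with the whole first-stage cluster, and Cd27 to -0.09 with doublets kept and -0.12 with marker scores. These redrawn classes are largely other cells: 29 of 310 cells with the 8 genes kept, 153 of 1048 with marker scores and 122 of 445 with doublets kept were in the class as reported.

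In the Ebf1 and Ly6d cluster the count of 0 became 1 at resolution 2.0, 1 with the 8 genes kept for clustering, 1 without centring and 1 with the whole first-stage cluster, each through Satb1, and was 0 to 1 without any 1 sample (1 without WT1). Lsp1 turned to 0.09 with the prefix covariate, 0.08 within the prefix, 0.07 with thinned cells and 0.04 without centring. Notch1 turned to -0.01 with the 8 genes kept (-0.04 to 0.31 without any 1 sample), Mef2c to -0.33 with marker scores (66 of 473 cells shared) and Rag1 to 0.28 without centring.

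For the difference between classes the count of 1 became 2 without the low-count filter and was 1 to 3 without any 1 sample (3 without WT2). Cd27 turned to -0.01 within the prefix (-0.03 to 0.30 without any 1 sample). Shares without overlap counted 3, 2 and 2 in the 3 classes at 2000 UMIs, but the genes differed with depth, and only Lsp1 in stem cell-like cells stood apart at 2000 UMIs, 1000 UMIs and unthinned. Without any 1 sample they counted 3 to 5, 2 to 4 and 2 to 5, and in the Ebf1 and Ly6d cluster 4 in unthinned cells and 1 at 1000 UMIs (Mef2c). The cause of these changes was not tested.

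No paired analysis was possible because the labels give the samples no shared replicate numbers. The lower resolution and the uncentred sub-clustering gave no lymphoid-primed class, and the doublets-kept run gave no Ebf1 and Ly6d cluster, so these have no value there. Equal sub-cluster shares were run for stem cell-like cells only, the other classes being 1 sub-cluster each. The uncentred, added sub-cluster and whole-cluster alternatives were chosen after the data were seen. Depth limits Rag1 and Rag2 most: in stem cell-like and lymphoid-primed cells they had at most 5 UMIs in any sum.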

Other observations

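The unnamed sub-cluster 3, with 322 cells led by Cd34, Adgrg1 and Myc, had Satb1 at 108, 109 and 82.8 CPM in the KO and at 47.2, 62.7 and 42.0 in the wt samples. All KO sums lay above all wt sums, as for 10.3% of 5051 genes with at least 10 UMIs in at least 3 of its sums. Its Lsp1 was at 85.6, 48.1 and 63.5 CPM against 106, 125 and 141, and its Mef2c at 105, 88.6 and 92.5 against 121, 118 and 157, both with all KO below all wt, as for 4.57% of those genes. The unnamed sub-cluster 8, with 66 cells led by Tcf7 and Tox, genes of T and innate lymphoid precursors, had Satb1 at 382, 247 and 496 CPM in the KO and 207, 179 and 72.8 in the wt samples, without overlap, as for 5.55% of 703 genes higher in KO there. It held as few as 4 cells in KO3 (7 Satb1 UMIs), and none of these sub-cluster values was tested.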
